A study of Mus musculus with 4 samples.

Results

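The genes described here are 9 regulators and members of the Ras switch, namely the Ras GTPase genes Nras and Hras, the guanine nucleotide exchange factor genes Rasgrp2, Rasgrp4 and Sos1, and the GTPase-activating protein (GAP) genes Rasa1, Rasa2, Rasa3 and Nf1. They were picked by name from a table of 27179 genes, with fold changes between WT and CD274-null libraries already known, so their differences between those groups are described without a test. All 9 were found in the table by NCBI gene number, all had a mean above the 0.5 FPKM needed for testing, and none lies on chromosome X or Y. The study asked which genes differ in leukemia-initiating cells (LICs) that lack CD274, also called PD-L1, a surface ligand that restrains T cells. RNA was sequenced from bone marrow of a mouse acute myeloid leukemia (AML) model on the C57BL/6 strain, with an age of 6 weeks on every label. There were 2 libraries from wild type cells (WT) and 2 from CD274-/- cells (CD274-null).

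Leukemia in both groups was started by the same agent, a retrovirus carrying the MLL-AF9 fusion oncogene and yellow fluorescent protein, which was put into lineage-negative fetal liver cells that were then transplanted into lethally irradiated C57BL/6 mice. Those recipients are not described as lacking CD274, so host cells that remain in a sample could carry the gene. The labels give sorted leukemia stem cells (LSCs) as the source, the study sorted LICs as Mac-1+/c-Kit+ cells, and its sequencing methods name tissue as the source of RNA. Neither source gives the round of transplantation, the number of mice behind a library, or whether 2 libraries of a group came from separate mice. Any p-value below therefore measures only the spread between these libraries, which may be technical.

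Ras proteins are small GTPases that sit at the inner face of the plasma membrane, where they signal while bound to GTP and are silent while bound to GDP. Exchange factors such as the Sos and RasGRP proteins load them with GTP, and GAPs such as Nf1 and the Rasa proteins speed the hydrolysis that turns them off. In myeloid cells this switch carries signals from cytokine receptors such as c-Kit to the Raf, MAPK and PI3-kinase pathways, and activating mutations of NRAS as well as loss of NF1 are well known in myeloid leukemia. RNA level says nothing of how much Ras is bound to GTP.

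The values were FPKM, that is, fragments per kilobase of gene model scaled to the mapped reads of the library, so levels of different genes can be set side by side. The mapped reads that the FPKM imply ranged from 8843737 to 11568565 per library, and whole reads per gene could be worked back from the table. The targeted gene, Cd274, had 2.80 and 0.945 FPKM under the WT label and 1.43 and 2.29 FPKM under the CD274-null label. These ranges overlap, and every direction below rests on the labels alone. Which bases the knockout allele lacks is not given in the sources used here, and reads outside them would not report the deletion. Of the sort markers, Itgam (Mac-1) had between 100.2 and 174 FPKM in the 4 libraries, and Kit (c-Kit) had 6.59 FPKM in WT replicate 1 against 16.2 to 19.5 in the other 3. WT replicate 1 also had the highest summed level of 9 maturing neutrophil markers, 42125 FPKM, against 8442 in WT replicate 2, with the CD274-null libraries between them. Of these markers, Ltf and Camp were instead highest in CD274-null replicate 2, with 216 and 5918 FPKM against 109 and 5330 in WT replicate 1. The female transcript Xist and the Y-linked Ddx3y also differed, with 2.57, 51.1, 107 and 68.7 FPKM and with 27.1, 18.1, 0.0244 and 6.28 FPKM, in the order used throughout, which is WT replicate 1, WT replicate 2, CD274-null replicate 1 and CD274-null replicate 2. Of the 6 plasma cell markers, 5 were higher in both CD274-null libraries, with sums of 9.84, 9.13, 228 and 201 FPKM. Mpo, a myeloid progenitor gene, had 444, 403, 1427 and 925 FPKM. The other myeloid genes of the same list were mixed. Cebpa was also higher in both CD274-null libraries, with 32.7, 32.4, 43.7 and 40.8 FPKM. Spi1 was lower in both, with 356, 332, 271 and 260 FPKM, and Elane, Csf1r, Itgam and Kit overlapped between groups. The part of cell makeup or sex in the values below was not tested.

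**Figure D1:**
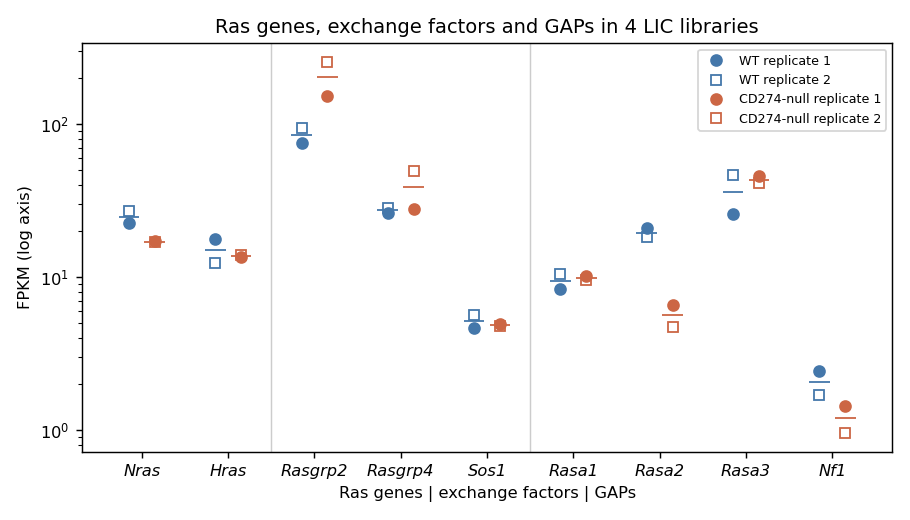
FPKM on a log axis of the 9 genes in each of the 4 libraries, with Ras genes at the left, exchange factors in the middle and GAPs at the right; filled circles are replicate 1, open squares replicate 2, and short bars the mean of the 2 libraries of a group. The groups are apart for Nras, Rasa2 and Nf1, with CD274-null lower, and for Rasgrp2, with CD274-null higher, while for the other 5 genes they overlap.

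Among the 9 genes, 3 were lower in both CD274-null libraries than in both WT libraries and 1 was higher, and 5 overlapped between groups. Over all 13230 tested genes, 21.8% were lower without overlap and 25.6% were higher without overlap, 47.3% in all, and nothing is read from the members' counts because their values chose them. A candidate was defined as a gene with an unadjusted p under 0.01 in limma and a fold change over 1.5, after the cutoff the study used. Rasa2 and Rasgrp2 met that cutoff, 2 of the 9 genes, beside 3.63% of all tested genes. Because they were picked with these values known, meeting it describes their size and spread and is no test of them. Rasgrp2 met it in 9 of 16 alternative settings and Rasa2 in 14. In the direction of Rasa2, lower in CD274-null, 1.24% of tested genes were candidates, and in the direction of Rasgrp2, higher, 2.39% were. An adjusted p under 0.05 was reached by 0.0756% of tested genes. Log2 fold changes are CD274-null minus WT on the scale of log2(FPKM + 0.5) and are given with their standard error (SE) from the fit to all tested genes. In bulk RNA, fewer cells of a type and less RNA per cell cannot be told apart.

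Nras, which encodes the Ras protein most often mutated in AML, had 22.6, 27.0, 17.2 and 16.9 FPKM, from 678 to 1229 reads per library. Both CD274-null libraries lay below both WT libraries and were close to each other. The mean was 24.8 ± 3.14 FPKM (SD, n = 2) in WT and 17.0 ± 0.181 (SD, n = 2) in CD274-null, a log2 fold change of -0.52 (SE 0.22). The gene lies at chr3:103058285-103067914 (GRCm38). RefSeq lists 1 pseudogene named after Nras, Nras-ps2, with which reads could be shared, and none named in this way for the other members. Pseudogenes under other names were not searched for.

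Hras, which encodes a Ras protein that differs from N-Ras mainly in its C-terminal membrane anchor region, had 17.7, 12.4, 13.5 and 13.9 FPKM, from 271 to 464 reads per library. The WT libraries lay on either side of the CD274-null ones. WT replicate 1 was 1.42 times WT replicate 2, and the log2 fold change was -0.11 (SE 0.26), within its error. Without WT replicate 1 it was 0.13. Hras lies at chr7:141189934-141194019. The ratio of Nras to Hras was 1.28, 2.17, 1.27 and 1.21, so WT replicate 2 stood apart and the other 3 libraries were alike.

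Rasgrp2, also called CalDAG-GEFI, encodes an exchange factor driven by calcium and diacylglycerol that is best known for loading Rap1 in platelets and neutrophils. It had the highest level of the 9 genes in every library, 75.2, 94.2, 152 and 254 FPKM, from 1909, 2103, 2957 and 5557 reads. Both CD274-null libraries lay above both WT libraries, and they differed from each other more than the WT libraries did. The mean was 84.7 ± 13.4 FPKM (SD, n = 2) in WT and 203 ± 72.1 (SD, n = 2) in CD274-null, 2.40-fold higher, with a log2 fold change of 1.22 (SE 0.30). Without CD274-null replicate 2 the log2 fold change was 0.85, and without CD274-null replicate 1 it was 1.59. It lies at chr19:6398957-6415216 and shares 265 exon bases with Gm14965 on the other strand.

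Rasgrp4, an exchange factor first known from mast cells and myeloid leukemia, had 26.3, 28.3, 27.7 and 49.4 FPKM, from 1137 to 2279 reads per library. Only CD274-null replicate 2 stood apart, and CD274-null replicate 1 lay between the WT libraries. The log2 fold change of 0.43 (SE 0.31) fell to 0.02 without that library. Rasgrp4 lies at chr7:29134607-29153961 and shares 978 exon bases with Fam98c, which is read from the other strand. The library kit does not mark strand, so reads in the shared bases cannot be assigned to one gene. Fam98c had 40.8, 46.6, 45.8 and 50.01 FPKM, and the part of shared reads in the Rasgrp4 values was not tested. The ratio of Rasgrp2 to Rasgrp4 was 2.86, 3.33, 5.50 and 5.15, higher in both CD274-null libraries.

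CD274-null replicate 2, in which Rasgrp2 and Rasgrp4 were highest, also had the highest sums of platelet and of mast cell markers. The sum of 6 megakaryocyte and platelet markers was 27.2, 22.9, 25.2 and 59.1 FPKM, with Gp1bb at 43.8 and Itga2b at 10.1 in that library, while Pf4 and Ppbp, the most abundant platelet transcripts, were listed at 0 in all 4. Gp1ba did not peak there, with 1.11, 1.65, 1.66 and 1.43 FPKM. The sum of 6 mast cell and basophil markers was 21.6, 57.4, 54.1 and 102 FPKM, with Cpa3 at 43.1 and Gata2 at 42.3 in that library, and Fcer1a was listed at 0 in all 4. Other mast cell and basophil markers did not peak there, with Mcpt8 at 10.3, 32.1, 37.2 and 14.8 FPKM and Ms4a2 at 0.856, 0.583, 2.80 and 1.29. Their part in the levels of Rasgrp2 and Rasgrp4 was not tested.

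Sos1, the exchange factor that receptor tyrosine kinases recruit through the adaptor Grb2, had 4.64, 5.62, 4.97 and 4.82 FPKM, from 392 to 510 reads per library. The CD274-null libraries fell between the WT libraries, and the log2 fold change was -0.06 (SE 0.29). Its paralog Sos2, named by rule and no member, had 38.4, 29.3, 21.7 and 14.0 FPKM and was thus above Sos1 in all 4 libraries. For Sos2 the log2 fold change was -0.93 (SE 0.29), with both CD274-null libraries lower and an adjusted p of 0.3005 in limma, which did not pass the test. Rasgrp1 and Rasgrp3, the RasGRP genes known from T and B cells, had at most 0.155 and 0.378 FPKM and were not tested. Sos1 lies at chr17:80393752-80480453.

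Over the 6 Sos and RasGRP genes, the summed level was 145, 158, 207 and 323 FPKM. Rasgrp2 alone gave 52.0%, 59.7%, 73.6% and 78.8% of it. Sos2 gave 26.5%, 18.6%, 10.5% and 4.34%. Sos1 gave 3.21%, 3.56%, 2.40% and 1.49%, and Rasgrp4 gave 18.2%, 17.9%, 13.4% and 15.3%. The groups were apart for all 4 genes, with that of Rasgrp2 higher and the others lower in CD274-null. Shares of a sum are not independent of each other.

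**Figure D2:**
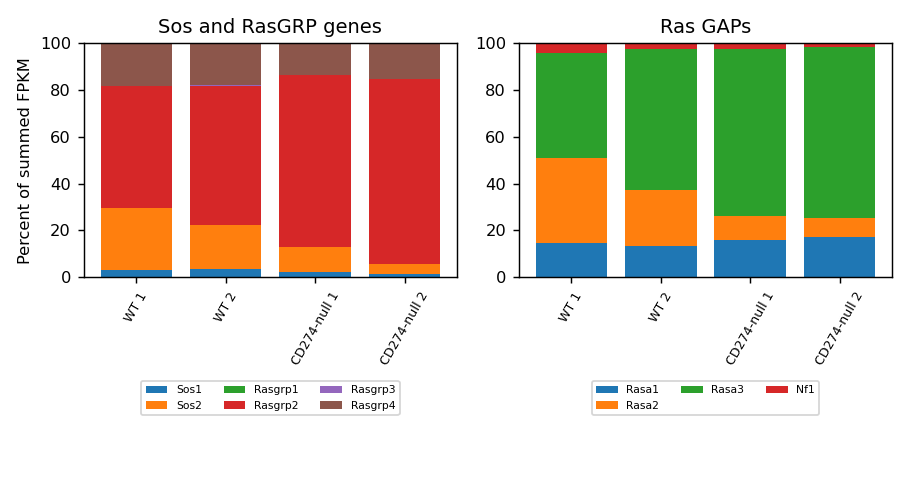
Stacked bars of the percent of summed FPKM that each gene contributes in each library, for the 6 Sos and RasGRP genes at the left and 4 Ras GAP genes at the right. Rasa2 takes 23.6% or more of the GAP sum in the WT libraries and 10.3% or less in the CD274-null libraries, and Rasgrp2 takes the largest share of its sum in every library.

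Rasa2 encodes a GAP of the GAP1 family, which acts on Ras at the membrane. It had 20.8, 18.2, 6.57 and 4.74 FPKM, from 1371, 1055, 331 and 269 reads. Both CD274-null libraries lay far below both WT libraries. The mean was 19.5 ± 1.85 FPKM (SD, n = 2) in WT and 5.65 ± 1.29 (SD, n = 2) in CD274-null, which is 29.0% of WT, with a log2 fold change of -1.71 (SE 0.27). Leaving out each library in turn gave log2 fold changes from -1.93 to -1.50. It lies at chr9:96539300-96631612 on the minus strand and shares no exon base with another gene.

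Rasa3, a GAP of the same GAP1 family that acts on Ras and Rap1, had 25.7, 46.8, 45.5 and 41.0 FPKM, from 1222 to 1962 reads. WT replicate 1 was low and the other 3 libraries were alike, so the groups overlapped. WT replicate 2 was 1.82 times WT replicate 1, while the counting error of a Rasa3 value was at most 2.86%. The log2 fold change of 0.31 (SE 0.31) turned to -0.11 without WT replicate 1. Rasa3 lies at chr8:13567218-13677587.

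Rasa1 encodes p120 RasGAP, which binds phosphorylated receptors through its SH2 domains. It had 8.35, 10.5, 10.2 and 9.57 FPKM, from 462 to 543 reads. The CD274-null libraries lay between the WT libraries, and the log2 fold change was 0.08 (SE 0.26), or -0.08 without WT replicate 1. It lies at chr13:85214699-85289486 and shares 12 exon bases with Ccnh, a gene on the other strand.

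Nf1 encodes neurofibromin, the large GAP whose loss causes neurofibromatosis and juvenile myelomonocytic leukemia. It had the lowest level of the 9 genes, 2.44, 1.71, 1.43 and 0.958 FPKM, from 335, 206, 150 and 113 reads. Both CD274-null libraries lay below both WT libraries, by a small gap between WT replicate 2 and CD274-null replicate 1. The counting error of a single value was 5.46% to 9.41%, and the log2 fold change was -0.60 (SE 0.39). Nf1 lies at chr11:79339590-79581609.

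The summed level of Rasa1, Rasa2, Rasa3 and Nf1 was 57.2, 77.1, 63.7 and 56.3 FPKM and overlapped between groups, whereas the shares of Rasa1, Rasa2 and Rasa3 in it did not. Rasa2 gave 36.3%, 23.6%, 10.3% and 8.42% of the GAP sum and Rasa3 gave 44.8%, 60.7%, 71.4% and 72.9%. The ratio of Rasa3 to Rasa2 was 1.23, 2.57, 6.93 and 8.66, again without overlap. Rasa1 gave 14.6%, 13.6%, 16.1% and 17.0%, a smaller shift, and Nf1 gave 1.70% to 4.27% with overlap.

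Promoter sequence is shown for Rasa2, Rasgrp2 and Nras, because their RNA levels are among those that part the libraries by label. Each line is a stretch free of GENCODE M21 exons within the 250 bases before a RefSeq start site (assembly GRCm38.p6), written 5′ to 3′ on the gene's strand. Capitals mark GGGCGG or its reverse complement CCGCCC, the GC box bound by Sp1-type factors, and the palindrome CACGTG, the E-box bound by Myc-type factors. They lie at chr9:96631618-96631753 on the minus strand for Rasa2, and on the plus strand at chr19:6399625-6399745 for Rasgrp2 and chr3:103058187-103058284 for Nras. Rasgrp2 has 2 such starts in the table, and the stretch shown lies inside the gene span, between alternative first exons, so it is upstream of that start but downstream of others.
Rasa2: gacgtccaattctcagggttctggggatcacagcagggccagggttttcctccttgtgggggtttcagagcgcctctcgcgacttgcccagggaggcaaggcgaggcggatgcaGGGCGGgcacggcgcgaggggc
Rasgrp2: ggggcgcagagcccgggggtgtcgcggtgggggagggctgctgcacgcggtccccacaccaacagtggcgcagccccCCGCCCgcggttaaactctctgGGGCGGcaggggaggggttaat
Nras: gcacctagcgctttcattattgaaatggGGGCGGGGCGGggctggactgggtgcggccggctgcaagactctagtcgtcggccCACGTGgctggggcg

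In the full windows, from 250 bases before to 50 after the start, GGGCGG was found on either strand, with overlapping matches counted, 3 times for Rasa2, 6 times for Rasgrp2 and 2 times at its second start, 3 times for Nras and 1 time for Nf1. A promoter window of all 32851 in the table held it in 35.7% of cases. CACGTG occurred 1 time, in the Nras window, against 7.15% of all windows. A window was found for 8 of the 9 members, all but Rasgrp4, and among the members whose groups overlapped Hras held 3, Rasa1 2, Rasa3 1 and Sos1 0 matches of GGGCGG. Matches were thus present in genes that were higher, lower and overlapping between groups. A match is a description of the sequence and not a measured binding site.

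By mean level in WT the order was Rasgrp2, Rasa3, Rasgrp4, Nras, Rasa2, Hras, Rasa1, Sos1 and Nf1. The libraries of Rasa3 and Rasgrp4 overlapped, as did those of Rasgrp4 and Nras, and the other neighbours in that order were apart. In CD274-null the order was the same except for Rasa2, which moved from rank 5 to rank 7 and overlapped Sos1 there. Rasa3 and Rasgrp4 overlapped again. Against all tested genes, the mean FPKM of Rasgrp2 stood at percentile 96.2, that of Rasa2 at 51.3 and that of Nf1 at 13.8.

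Fold changes in this table followed the GC content of the transcript. Across 11435 tested genes with a transcript sequence, Spearman's rho of log2 fold change with GC content was 0.272, as a description across genes, which are not independent replicates. After each library was corrected for GC content with a loess curve, rho was -0.01. The members ranged from 41.0% for Sos1, 41.9% for Rasa1, 41.99% for Rasa2 and 42.6% for Nras up to 56.7% for Rasgrp2 and 57.7% for Hras, around a median of 50.5% for all genes. Correction moved the log2 fold change of Rasa2 to -1.54 (SE 0.25) and that of Rasgrp2 to 1.03 (SE 0.27). These 2 of the 9 genes met the cutoff after correction, beside 2.81% of the genes that could be corrected. That of Nras moved to -0.36, that of Nf1 to -0.47, that of Rasgrp4 to 0.27 and that of Hras to -0.33. That of Rasa1 moved from 0.08 to 0.25 and that of Rasa3 from 0.31 to 0.25. Sos1 turned from -0.06 to 0.12, so 4 of the 9 genes had a value below 0 after correction against 5 before, beside 50% and 48.9% of all genes.

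**Figure D3:**
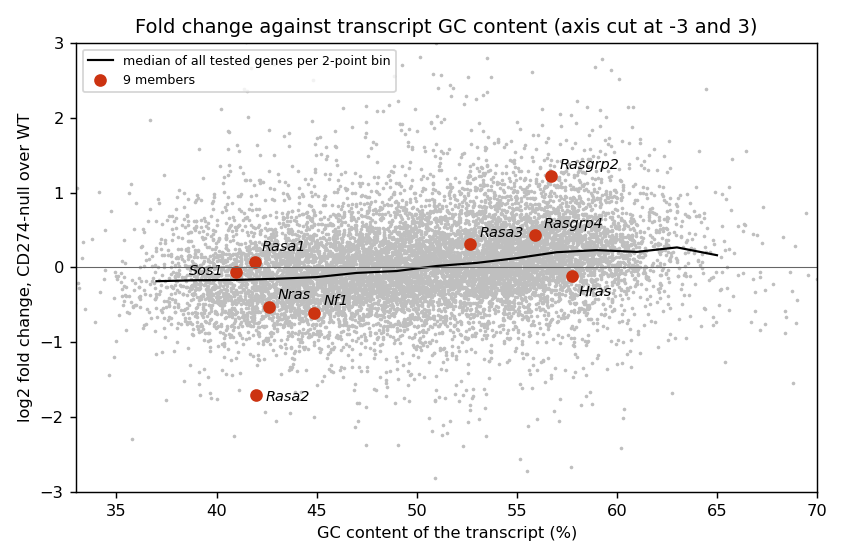
Log2 fold change (CD274-null over WT) of each tested gene against the GC content of its transcript in percent, with the 9 members in red, other genes in grey, and a black line for the median of all tested genes in bins of 2 percentage points. The line rises with GC content; Rasa2 at 41.99% GC lies far below it and Rasgrp2 at 56.7% far above it.

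**Figure D4:**
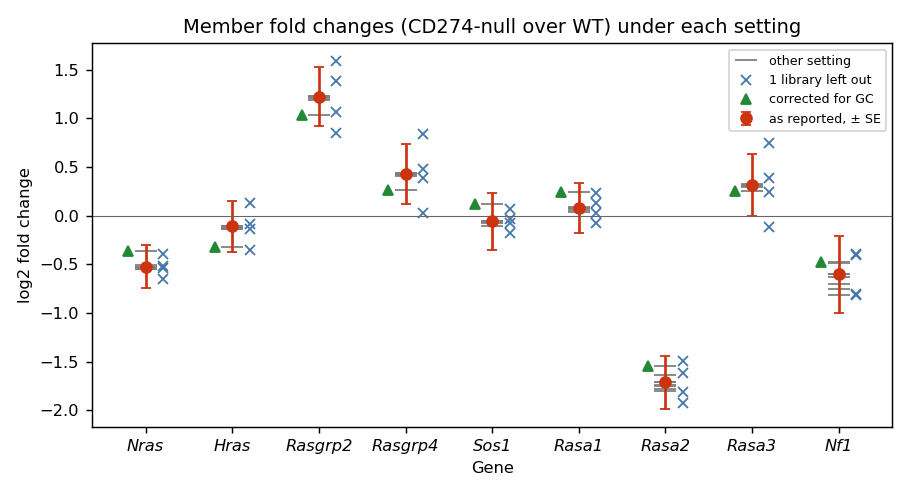
Log2 fold change of each member as reported (red, ± SE), after GC correction (green triangle), with 1 library left out (blue crosses) and under the other settings (grey dashes). Nras, Rasa2 and Nf1 stay below 0 and Rasgrp2 and Rasgrp4 above 0 under every setting in which they were tested, whereas Hras, Rasa1, Rasa3 and Sos1 cross 0.

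Around the 9 genes, 6 lists of Ras network genes held 144 genes by role, of which 113 were tested, 104 of them no members. Of those 104, 5 reached the mean of 0.5 FPKM in 1 group only and are left out of the counts that follow, a choice made after seeing the data. Of the 99 genes that remain, 6 were candidates (6.06%, against 3.26% of all genes kept in the same way), with 2 higher and 4 lower in CD274-null. The candidate share depended on the setting too. It was 1.01% beside 1.01% without moderation, 3.03% beside 2.45% without the mean-variance trend and 9.09% beside 3.71% with a replicate block. None of the 99 genes had an adjusted p under 0.05 in limma, and 21 (21.2%) had an unadjusted p under 0.05, beside 12.9% of all genes. After GC correction 13.1% did, beside 11.6%, and with voom on the recovered reads 23.2% did, beside 12.6%. The share was 22.2% beside 13.9% with quantile normalization and 19.2% beside 12.6% with a replicate block. It was 12.1% beside 11.4% without the mean-variance trend and 11.1% beside 9.21% without moderation. In none of these settings did a gene pass after adjustment, and the count of 21 thus depends on the setting.

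Spred1 and Spred2, which bring neurofibromin to the membrane and thereby dampen Ras, were both lower. Spred2 had 11.8, 8.58, 1.46 and 1.99 FPKM, a log2 fold change of -2.26 (SE 0.33), and an adjusted p of 0.143 in limma. Spred1 had 11.3, 7.24, 2.60 and 1.51 FPKM, a log2 fold change of -1.94 (SE 0.38), and an adjusted p of 0.251 in limma. For both genes the CD274-null libraries lay below the WT ones with no overlap, at 37 to 392 reads per library. With 2.08 FPKM in WT, Nf1 stood below both of them there.

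Cbl, the ubiquitin ligase that turns off activated receptor kinases such as c-Kit, had 31.2, 32.8, 12.4 and 9.60 FPKM and a log2 fold change of -1.51 (SE 0.24). The scaffold gene Iqgap1, which carries a GAP-like domain and binds MAPK kinases, had 122, 134, 68.3 and 68.5 FPKM and a log2 fold change of -0.90 (SE 0.20). Their adjusted p values in limma were 0.165 and 0.251. In both genes replicates were close and groups apart.

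The 2 candidates that were higher were Rasa4, a calcium-dependent GAP of the GAP1 family, and Rgl2, an exchange factor for Ral that Ras activates. Rasa4 had 4.24, 6.00, 10.9 and 23.1 FPKM, a log2 fold change of 1.57 (SE 0.41) and an adjusted p of 0.274 in limma. Rgl2 had 61.5, 65.1, 105 and 134 FPKM, a log2 fold change of 0.90 (SE 0.22) and an adjusted p of 0.269 in limma. After GC correction they stood at 1.33 and 0.66 and were no longer candidates, while Spred1, Spred2, Cbl and Iqgap1 still were. Leaving out 1 library ended the call of Spred1 in 3 of the 4 cases, all but WT replicate 2, and that of Iqgap1 in 3, all but WT replicate 1. The call of Cbl was lost without CD274-null replicate 2 and that of Spred2 without CD274-null replicate 1. Rasa4 was a candidate in 6 and Rgl2 in 7 of 16 alternative settings, and no higher candidate of the Ras lists was left with equal medians, without moderation, without WT replicate 1 or without CD274-null replicate 2. Of the GAP1 family genes named here, Rasa2 was thus lower and Rasa4 higher without overlap, and Rasa3 overlapped.

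**Figure D5:**
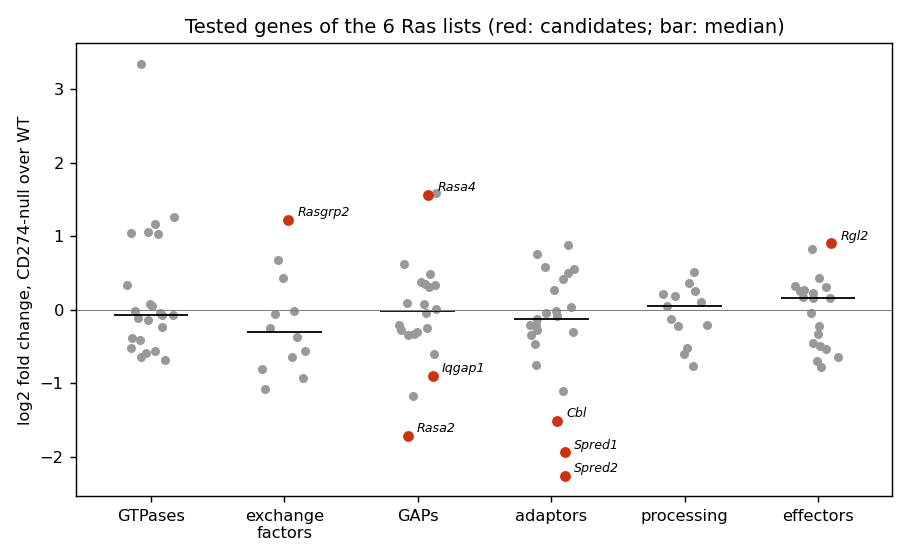
Log2 fold change (CD274-null over WT) of the tested genes in each of 6 Ras lists, with 1 point per gene, candidates in red and a black bar at the median of each list. Medians lie between -0.31 for exchange factors and 0.16 for effectors, and the 8 named points are the candidates Rasgrp2, Rasa2, Rasa4, Iqgap1, Cbl, Spred1, Spred2 and Rgl2.

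By list, with members and the genes above 0.5 FPKM in 1 group only left out, 4 of 17 GTPases, 4 of 9 exchange factors and 2 of 18 GAPs had an unadjusted p under 0.05, beside 12.9% of all genes. Of 22 adaptors and upstream regulators 7 did, of 13 processing enzymes 2, and of 20 effectors 2. After GC correction 1 GTPase, 2 exchange factors, 2 GAPs, 6 adaptors, 0 processing enzymes and 2 effectors had such a p, beside 11.6% of all genes. Rapgef1 was then the candidate among the exchange factors that are no members.

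The most abundant genes of each list were named by rule. None of those that follow was a candidate before GC correction, and Rapgef1 was one after it. Rap1b, the GTPase gene on which Rasgrp2 is best known to act, had 198, 204, 150 and 119 FPKM, with CD274-null lower without overlap and a log2 fold change of -0.59 (SE 0.22). Rapgef1, another exchange factor for Rap1, had 35.8, 33.3, 22.4 and 17.0 FPKM and a log2 fold change of -0.81, or -0.98 after GC correction. Sipa1, a GAP for Rap1, had 66.7, 72.7, 80.9 and 96.8 FPKM, with CD274-null higher by 0.34 on the log2 scale, or 0.10 after GC correction. Grb2, the adaptor of Sos1, overlapped between groups at 70.7, 95.9, 82.0 and 77.6 FPKM, a log2 fold change of -0.05. The adaptor Dok3 and the diacylglycerol kinase Dgkz, which removes the lipid that activates RasGRP proteins, had log2 fold changes of 0.50 and 0.88.

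Among the other GTPases, Rheb and Ralb had log2 fold changes of -0.24 and -0.06. The enzymes that remove palmitate from proteins, as they do from N-Ras and H-Ras, differed in sign, and none passed the test. Lypla2 had 67.8, 60.1, 86.0 and 97.7 FPKM, higher in CD274-null by 0.52 on the log2 scale, while Lypla1 stood at 60.6, 52.8, 42.2 and 36.5 FPKM, a log2 fold change of -0.52. Abhd17b overlapped, with a log2 fold change of -0.76. The effectors Rin3 and Pik3cd had log2 fold changes of 0.43 and 0.26. GC correction moved several of these values by over 1.5 times, to 0.28 for Lypla2, -0.30 for Lypla1, 0.25 for Dok3, 0.20 for Rin3, 0.06 for Pik3cd, -0.16 for Rheb, -0.11 for Ralb and -0.09 for Grb2.

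Across the 4 libraries, the genes whose centred log2 levels came closest to those of Rasa2 were Elk4, App and Aff2, with root mean square differences of 0.0952, 0.114 and 0.131. Elk4, an ETS factor that MAPK phosphorylates, had 12.3, 13.0, 4.04 and 2.98 FPKM, and App had 291, 208, 85.8 and 59.8. For Rasgrp2 they were P2ry14, BC147527 and Gpc2, each at 0.0561 to 0.0563. Gpc2 had 2.96, 3.48, 6.57 and 11.2 FPKM. P2ry14 had only 0.192, 0.382, 0.943 and 1.68 FPKM, and BC147527 had 0.0521, 0.237, 0.682 and 1.57. The constant added to FPKM before taking log2 shrinks differences between values as low as those of P2ry14 and BC147527. Their likeness to Rasgrp2 thus holds on that scale only, and in FPKM their relative rise was larger than that of Rasgrp2. Likeness over 4 libraries is a description and was not tested.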

How the data were processed

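The authors aligned the reads of sorted LSCs (TruSeq v2 libraries, which do not mark strand) to GRCm38, and their processing notes name CASAVA 1.8.2 and TopHat2 2.0.12. They deposited 1 table of FPKM for 27179 genes by NCBI gene number, with 4 columns. The program that made the FPKM is not given in the sources used here. Gene symbols were found for 25275 of them. FPKM of the 13230 genes with a mean of at least 0.5 were tested with limma 3.58.1 (R 4.3.3; eBayes with a mean-variance trend) on log2(FPKM + 0.5), with 2 WT against 2 CD274-null libraries, no covariate and Benjamini-Hochberg adjustment over all 13230. Since the pseudocount understates changes of low genes, FPKM are printed beside fold changes. Whole reads were recovered as FPKM times length times mapped reads for 99.99% of 17083 genes above 0 in at least 2 libraries. Counting error is the inverse square root of reads and covers counting only. On data simulated for this comparison (13077 genes, 195 changed), candidates held 69.4% of genes changed by a log2 size of 1, 99.0% of those of size 2 and 0.85% of unchanged genes. The simulated reads had the same dispersion for every gene, and no GC trend or difference in cell makeup. These shares therefore need not hold for the real libraries. GC content came from the GENCODE M21 transcript closest in length to that behind the FPKM (loess span 0.3). Promoters came from RefSeq (GRCm38.p6).

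The 9 members, the 6 Ras lists and the marker lists were chosen with earlier results of these data known. Besides the members, the text names Ras list genes that are candidates, up to 3 genes of highest mean FPKM per list, Sos2, Rasgrp1 and Rasgrp3, and the 3 genes most like Rasa2 and Rasgrp2. Some items that the rule covers are not reported here. Of the marker lists, B cells had sums of 12.9 to 40.6 FPKM, T cells 2.41 to 4.91 and erythroid cells 0.152 to 55.2. Other pseudocounts, filters, scalings, variance models, the replicate block, GC correction, voom on recovered reads and leaving out each library were tried as alternatives.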

Additional observations from a re-analysis of the deposited data

How the results depend on the processing

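Leaving out 1 library at a time gave 147 to 634 candidates among all genes against 480, 1 to 12 in the Ras lists against 8, and 0 to 2 among the members against 2. All genes held 147 candidates without CD274-null replicate 2 and 235 without CD274-null replicate 1, and the Ras lists 1, 4 and 5 without CD274-null replicate 2, CD274-null replicate 1 and WT replicate 1, and 12 without WT replicate 2. Members had 1 candidate, Rasa2, without WT replicate 1 or 2 and 0 without CD274-null replicate 2. The count of 9 members with a log2 fold change below 0 was 5, or 4 to 6 with 1 library left out. Without moderation of the variance there were 170 candidates among all genes, 1 in the Ras lists and 0 among the members. With no filter on low genes, with equal medians, or without the mean-variance trend, 1 member, Rasa2, was a candidate. The share of candidates that were higher was 65.8% (316 of 480), but 253 of 463 with quantile normalization (54.6%) and 247 of 447 with equal medians (55.3%). The replicate numbers name no shared mouse or day, and deviations of libraries with the same number had a correlation of -0.02. A replicate block gave 526 candidates among all genes, 12 in the Ras lists, Sos2 included, and 2 among the members, and together with GC correction 294. Nf1, with 113 to 335 reads, had the least depth of the members.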

Other observations

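The R-Ras group of GTPases, close relatives of N-Ras and H-Ras, was low in these libraries. It was singled out after its values were seen. Rras had 1.01, 3.11, 3.82 and 5.84 FPKM, Mras had 0.557, 1.02, 2.30 and 2.02, and Rras2 had 0.342, 0.259, 0.994 and 1.32, in the order WT replicates 1 and 2 and CD274-null replicates 1 and 2. In both CD274-null libraries the values of all 3 lay above those in WT, where Nras lay below. Over all tested genes 25.6% were higher without overlap, and nothing is read from these 3 genes because their values chose them. Rras and Mras had log2 fold changes of 1.17 (SE 0.50) and 1.06 (SE 0.40) and did not pass the test, with adjusted p values in limma of 0.377 and 0.343. Rras2 reached a mean of 0.5 FPKM only through the CD274-null libraries, so no test of it is given. The values of the 3 genes rested on 6 to 82 reads per library.

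The GTPase gene Gem, of the RGK group, had 0.498, 0.261, 2.61 and 24.7 FPKM, so that CD274-null replicate 2 stood apart from all other libraries. Its mean passed 0.5 FPKM only through the CD274-null libraries, so no test of it is given. It too was singled out after its values were seen.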
